A study of Homo sapiens with 6 samples.

Results

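Oxidative phosphorylation in EJ cells was described here through 104 genes, chosen from the 15953 genes of the table by their symbols: those that begin with NDUF, UQCR, ATP5 or COX and a digit, together with SDHA, SDHB, SDHC, SDHD, SDHAF1 and SDHAF2. By known function, 46 of them belong to complex I, 6 to complex II, 9 to complex III, 24 to complex IV and 19 to complex V. NDUFA4 and NDUFA4L2 were placed in complex IV, since NDUFA4 is now regarded as a subunit of that complex despite its name. EJ is an established human bladder cancer cell line. RNA-seq was performed on 3 libraries of EJ cells carrying a control hairpin (shNC) and 3 of EJ cells carrying a hairpin against STIL (shSTIL), a centriole protein needed for centriole duplication. No other genotype, drug or time point separates the groups. The column headings of the deposited tables read siNC and siSTIL where the sample labels read shNC and shSTIL, and the labels were followed here. The paper describes the sequenced cells as having a stable STIL knockdown, and it names its knockdown lentivirus shSTIL. The sources used here do not give the hairpin sequence, the number of hairpins or clones, or whether replicates were separate cultures, so p-values measure the spread between these libraries, which may be technical.

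The respiratory chain passes electrons from NADH (complex I) and succinate (complex II) through ubiquinone, complex III, cytochrome c and complex IV to oxygen, and complexes I, III and IV pump protons out of the mitochondrial matrix. Complex V, the ATP synthase, lets the protons flow back through a ring of c subunits and uses the rotation to make ATP. Apart from complex II, the complexes combine subunits made from mitochondrial DNA with subunits made from nuclear genes. The genes described here are nuclear, and assembly factors among them help to build a complex without remaining in it.

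STIL, the targeted gene, was measured as log2 CPM, the log2 of a gene's reads scaled to an adjusted library total, with a small prior count. It stood at 5.98, 6.10 and 6.01 in control and at 4.05, 4.06 and 4.01 in STIL-knockdown libraries. It was lower by 1.99 on the log2 scale (log2 fold change -1.99, SE 0.05, limma adjusted p = 6.1e-12), which left 25.2% of the control level. By an exact permutation test (two-sided) p was 0.1, the smallest value that 3 against 3 libraries allow. Depth was 16214771 to 16431242 reads in control and 16734468 to 16901633 in STIL-knockdown libraries. The factors that adjust these totals, recovered from the deposited log2 CPM, were 0.981 to 0.992 in control and 1.012 to 1.019 in STIL-knockdown libraries. Of 15 urothelial and epithelial markers, 13 were in the table and 4 had a mean log2 CPM above 1 (KRT7, KRT8, KRT18 and PPARG). GATA3 was under a log2 CPM of -0.5 in each library, and UPK2, KRT5, KRT20 and CDH1 had lower means, so the urothelial label rests on a small set of markers. Of 9 leukocyte, endothelial and fibroblast markers, 5 were in the table, and their summed CPM was 14.7 to 17.1 in control and 15.5 to 17.6 in STIL-knockdown libraries, a sum in which CD68 has the most reads. The fibroblast marker COL1A1 fell by 0.96 (limma adjusted p = 0.0020). The summed CPM of the urothelial and epithelial markers was 1096 to 1156 in control and 994 to 1026 in STIL-knockdown libraries, with KRT8 at -0.70, UPK1B at -1.12, KRT7 at 0.49 and PPARG at 0.26 on the log2 scale, each past the threshold. The part of these shifts in the results given here was not tested.

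Most of the oxidative phosphorylation genes that changed were lower after STIL knockdown. With an adjusted p under 0.01 in limma, 58 of the 104 genes (55.8%) were lower, against 23.6% of all genes, and 9 (8.65%) were higher, against 23.5% of all genes. The other 37 did not pass. The comparison with all genes is affected by level, as 98 of the 104 genes reached a mean log2 CPM of 3. Among the 9943 genes at that level, 32.8% were lower and 32.4% higher. The median log2 fold change was -0.21 over the 104 genes and 0.01 over all genes, and 81 of the 104 had a negative value. The values of the control and STIL-knockdown libraries did not overlap in 65 genes that were lower and 12 that were higher, together 74.0% of the 104, against 60.3% of all genes. Where the mean log2 CPM reached 3, the share was 77.6% both of the 98 oxidative phosphorylation genes and of the 9943 genes. In bulk RNA, fewer cells with a transcript and less of it per cell cannot be told apart. When STIL-knockdown replicate 3 was left out, 38 of the 104 genes were lower and 5 higher, beside 2500 and 2400 of all genes. Without STIL-knockdown replicate 1 the number higher was also 5, beside 2543 of all genes.

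**Figure D1:**
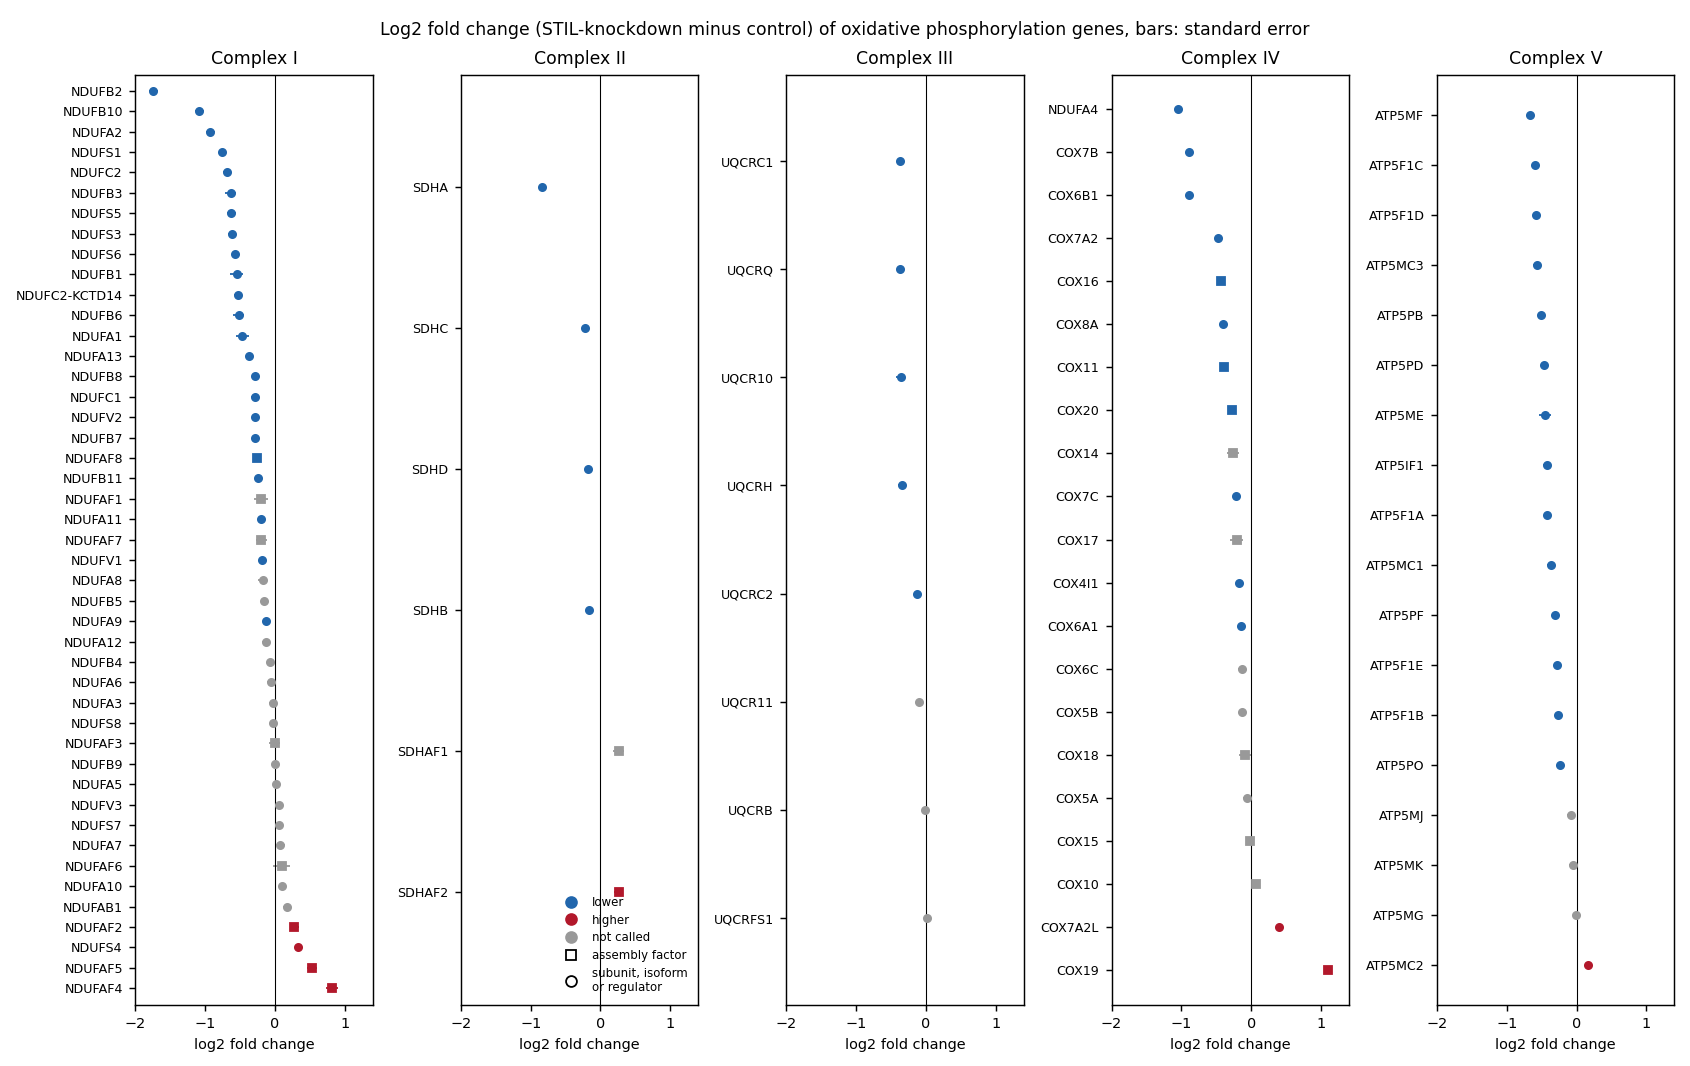
Log2 fold change (x axis, STIL-knockdown minus control) of 98 of the 99 oxidative phosphorylation genes whose mean log2 CPM reached 1, one row per gene and one panel per complex. Bars are standard errors of limma, blue points are lower and red points higher at an adjusted p under 0.01, and squares are assembly factors, which reach furthest to the right in complexes I and IV with NDUFAF4 at 0.82 and COX19 at 1.11.

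The falls were moderate in size. Among the 58 lower genes the log2 fold change ran from -1.75 to -0.13 with a median of -0.40, and 21 of them fell by at least 0.5 on the log2 scale. NDUFB2, NDUFB10 and NDUFA4 fell the most, to 29.8%, 47.0% and 48.1% of the control level. Subunits and assembly factors differed in their counts. Of 79 subunits, counted without alternative isoforms and the inhibitor ATP5IF1, 53 were lower and 2 higher (NDUFS4 and ATP5MC2). The isoforms left out include COX7A2L (0.39) and NDUFA4L2 (1.34), which were higher. The readthrough genes NDUFC2-KCTD14 and ATP5MF-PTCD1 are counted among the 79. Of 19 assembly factors, 4 were lower (NDUFAF8, COX11, COX16 and COX20) and 5 higher (NDUFAF2, NDUFAF4, NDUFAF5, SDHAF2 and COX19), and their median log2 fold change was -0.01 beside -0.26 for the subunits. These counts are 21.1% and 26.3% of the assembly factors, near the 23.6% and 23.5% of all genes. At a mean log2 CPM of 3, which 18 of the 19 reached, 32.8% of all genes were lower and 32.4% higher. The difference between subunits and assembly factors was not tested.

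The summed CPM of the 104 genes was 9121, 8868 and 9257 in control libraries and 7366, 7592 and 7488 in STIL-knockdown libraries. The groups did not overlap, and the STIL-knockdown mean was 82.4% of the control mean. Complex II stood lowest, at 72.9% of control, and complex III highest, at 87.3%, with complex I at 84.2%, complex IV at 83.7% and complex V at 80.4%. These sums are made without division by transcript length, so they are dominated by the genes with many reads. The place of complex II rests largely on SDHA, with a mean log2 CPM of 8.44 in control beside 6.93 for the next gene, SDHC. By median log2 fold change complex II (-0.17) fell less than complexes I (-0.20), IV (-0.19) and V (-0.37), and more than complex III (-0.13).

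**Figure D2:**
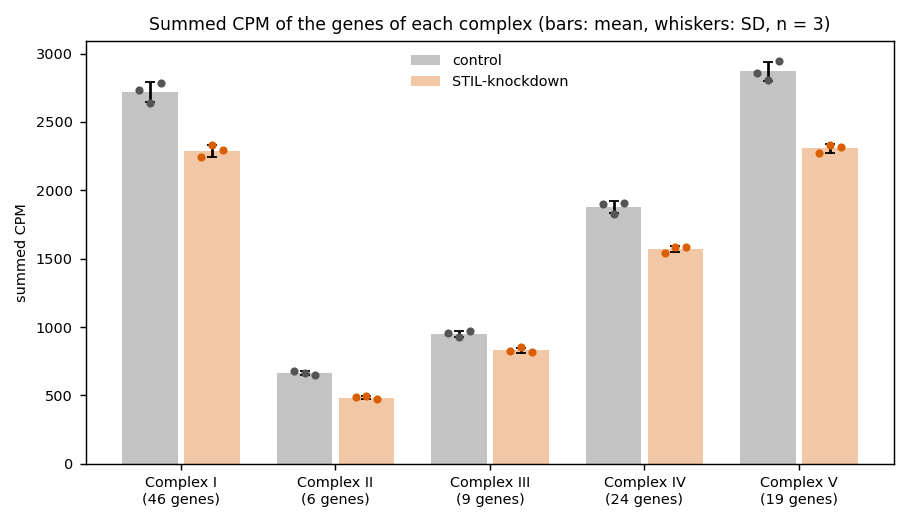
Summed CPM (y axis) of the genes of each complex in control (grey) and STIL-knockdown (orange) libraries, with points for libraries, bars for means and whiskers for the SD (n = 3). In each of the 5 complexes the STIL-knockdown points lie below the control points, from 72.9% of the control mean in complex II to 87.3% in complex III.

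Promoters are shown for the gene with the largest fall (NDUFB2) and the gene with the largest rise (COX19) among genes that passed and reached a mean log2 CPM of 3. They were searched on both strands for GCGCATGCG, the core of the motif of NRF1, a transcription factor known for respiratory chain genes, and for CCGGAAG, a motif of the ETS family, to which the respiratory gene factor GABPA belongs. Neither promoter holds either motif. TGACGTCA, the motif of the CREB and ATF family, was seen in the NDUFB2 promoter and then searched in all promoters, so it was chosen after the values were seen. ATP5F1C and COX6B1 were added in the same way, as the lower genes with the largest falls whose promoters hold the NRF1 core and the ETS motif. Each sequence is RefSeq's (GRCh38.p14), 5′ to 3′ on the gene's strand, from 250 bases before the annotated start, with motif letters in capitals. They lie at chr7:140696458-140696757 (plus strand, NDUFB2), chr7:975500-975799 (minus strand, COX19), chr10:7787927-7788226 (plus strand, ATP5F1C) and chr19:35648073-35648372 (plus strand, COX6B1).
NDUFB2: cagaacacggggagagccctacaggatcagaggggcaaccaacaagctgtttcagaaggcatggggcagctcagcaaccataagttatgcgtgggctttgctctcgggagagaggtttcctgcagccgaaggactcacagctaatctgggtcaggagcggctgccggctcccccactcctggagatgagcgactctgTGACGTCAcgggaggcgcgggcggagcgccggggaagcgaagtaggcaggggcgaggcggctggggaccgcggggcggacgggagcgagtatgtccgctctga
COX19: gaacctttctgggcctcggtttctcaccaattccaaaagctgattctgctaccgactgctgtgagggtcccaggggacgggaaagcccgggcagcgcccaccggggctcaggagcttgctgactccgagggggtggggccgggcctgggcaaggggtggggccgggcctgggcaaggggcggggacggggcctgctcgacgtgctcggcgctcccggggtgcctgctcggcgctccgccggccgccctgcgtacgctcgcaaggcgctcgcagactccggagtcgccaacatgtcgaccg
ATP5F1C: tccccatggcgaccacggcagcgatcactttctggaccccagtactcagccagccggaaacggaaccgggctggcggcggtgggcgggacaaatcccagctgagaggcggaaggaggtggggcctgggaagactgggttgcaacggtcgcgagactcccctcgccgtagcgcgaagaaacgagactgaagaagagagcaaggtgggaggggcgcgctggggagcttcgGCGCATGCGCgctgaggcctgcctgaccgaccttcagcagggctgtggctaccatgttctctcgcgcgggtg
COX6B1: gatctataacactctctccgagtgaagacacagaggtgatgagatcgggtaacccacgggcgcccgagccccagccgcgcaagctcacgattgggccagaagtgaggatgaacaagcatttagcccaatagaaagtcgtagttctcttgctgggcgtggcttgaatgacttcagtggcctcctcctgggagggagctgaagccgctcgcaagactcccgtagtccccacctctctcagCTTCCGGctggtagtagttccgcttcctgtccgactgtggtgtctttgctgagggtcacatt

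The CREB and ATF motif begins at position -53 from the annotated start in NDUFB2, the NRF1 core at position -22 in ATP5F1C and the ETS motif, on the minus strand, at position -12 in COX6B1. In ATP5F1C the capitals cover 2 overlapping matches to the NRF1 core, 1 on each strand. Of the 104 genes, 85 matched a promoter. The NRF1 core was in 15.3% of these 85 promoters and in 3.27% of the 12621 promoters of all genes in the table, the ETS motif in 29.4% and 16.7%, and the CREB and ATF motif in 5.88% and 2.91%. By direction, the NRF1 core was in 6 of 48 promoters of lower genes, 2 of 8 of higher genes and 5 of 29 of genes that did not pass. The ETS motif was in 16 of 48, 2 of 8 and 7 of 29. The CREB and ATF motif was in 4 of 48, 0 of 8 and 1 of 29. These counts are small and their differences were not tested. A match is a description of letters, not of binding.

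Complex I, the NADH dehydrogenase, had 24 lower (52.2%) and 4 higher (8.70%) genes of 46, with a median log2 fold change of -0.20. Of all genes whose mean log2 CPM reached 3, 32.8% were lower and 32.4% higher. The 2 largest falls in complex I were in NDUFB2 and NDUFB10, which encode accessory subunits of the arm in the membrane. NDUFB2 (chr7:140690777-140722790, GRCh38) had a log2 CPM of 5.98, 5.90 and 6.03 in control and 4.28, 4.09 and 4.32 in STIL-knockdown libraries. Every STIL-knockdown library was far below every control library, and 29.8% of the control level was left (log2 fold change -1.75, SE 0.07, limma adjusted p = 1.3e-10). It ranked 72 among all genes by the size of its fall. Of its annotated transcript of 504 nt, 149 nt overlap the antisense gene NDUFB2-AS1, which is not among the genes used here, and the sources do not state whether counting used strand.

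NDUFB10, also of the membrane arm, had 6.21, 6.10 and 6.27 in control and 4.95, 5.13 and 5.22 in STIL-knockdown libraries. The groups were again apart, with 47.0% left (log2 fold change -1.09, SE 0.07, limma adjusted p = 1.2e-08). Of the 14 genes whose symbols begin with NDUFB or NDUFC, 11 (78.6%) were lower and none higher, and their median log2 fold change was -0.41. These 14 are not all the accessory genes of the membrane arm. The others that fell were NDUFC2, NDUFB3, NDUFB1, NDUFC2-KCTD14, NDUFB6, NDUFB8, NDUFC1, NDUFB7 and NDUFB11, with log2 fold changes from -0.69 to -0.25. NDUFC2-KCTD14 is a readthrough gene that shares 431 nt of its 656 nt transcript with NDUFC2, so the division of reads between them is uncertain. NDUFB5 (-0.15), NDUFB4 (-0.07) and NDUFB9 (0.00) did not pass.

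Nuclear core subunits of complex I carry the flavin and the iron-sulphur clusters that lead electrons from NADH to ubiquinone. NDUFS1, the largest iron-sulphur subunit, had 7.10, 7.12 and 7.13 in control and 6.38, 6.36 and 6.33 in STIL-knockdown libraries. Replicates differed by little and 59.1% was left (log2 fold change -0.76, SE 0.03, limma adjusted p = 6.0e-10). NDUFS3 fell by 0.62 on the log2 scale and NDUFV2 by 0.28. NDUFV1, which binds the flavin, fell by 0.19, a call that was lost in 4 of the 6 fits with 1 library left out. NDUFS7 (0.06) and NDUFS8 (-0.03), which hold the last clusters before ubiquinone, did not pass.

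Of the other 17 accessory subunits of complex I, 7 (41.2%) were lower and 1 (5.88%) was higher. These shares stood beside 32.8% and 32.4% of all genes whose mean log2 CPM reached 3. NDUFA2, in the matrix arm, had 5.15, 5.07 and 5.11 in control and 4.30, 4.17 and 4.07 in STIL-knockdown libraries, so that 52.6% was left (log2 fold change -0.93, SE 0.07, limma adjusted p = 6.1e-08). The other falls were in NDUFS5, NDUFS6, NDUFA1, NDUFA13, NDUFA11 and NDUFA9, from -0.63 to -0.13. NDUFS4, a matrix arm subunit whose loss causes Leigh syndrome, went the other way. Its log2 CPM was 5.26, 5.18 and 5.15 in control and 5.50, 5.58 and 5.51 in STIL-knockdown libraries. The groups did not overlap and the log2 fold change was 0.33 (SE 0.05, limma adjusted p = 4.8e-05).

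Assembly factors of complex I included 3 of its 4 higher genes. Of its 8 assembly factors, 3 (37.5%) were higher and 1 (12.5%) was lower. Of all genes whose mean log2 CPM reached 3, 32.4% were higher and 32.8% lower. NDUFAF4, which takes part in early assembly, had 3.70, 3.56 and 3.62 in control and 4.30, 4.55 and 4.48 in STIL-knockdown libraries. Every STIL-knockdown library was higher, by 0.82 on the log2 scale in the mean (SE 0.08, limma adjusted p = 1.6e-06). NDUFAF5, an enzyme that hydroxylates NDUFS7 during assembly, rose by 0.53 (SE 0.07, limma adjusted p = 2.6e-05) and NDUFAF2 by 0.28. NDUFAF8, a partner of NDUFAF5, fell by 0.25. NDUFAF1 (-0.20), NDUFAF3 (-0.01), NDUFAF6 (0.09) and NDUFAF7 (-0.20) did not pass.

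In complex II, the succinate dehydrogenase that also serves the citric acid cycle, all 4 subunit genes were lower. Of all genes whose mean log2 CPM reached 3, 32.8% were lower. SDHA, the flavoprotein that oxidises succinate, had a log2 CPM of 8.47, 8.41 and 8.42 in control and 7.59, 7.63 and 7.59 in STIL-knockdown libraries. The gap between the groups was far wider than the spread within them, and 56.1% was left (log2 fold change -0.83, SE 0.03, limma adjusted p = 1.3e-10). The other subunits fell less. SDHB, the iron-sulphur subunit, had 6.57, 6.59 and 6.54 against 6.41, 6.42 and 6.40 (log2 fold change -0.16, limma adjusted p = 0.00098). SDHC, a membrane anchor, had 6.95, 6.96 and 6.89 against 6.76, 6.76 and 6.63 (log2 fold change -0.22, limma adjusted p = 0.00046). SDHD, the other anchor, had 6.08, 6.05 and 5.93 against 5.83, 5.88 and 5.82 (log2 fold change -0.18, limma adjusted p = 0.0052). None of the 3 overlapped between the groups, but the calls of SDHC and SDHD were each lost in 5 of the 6 fits with 1 library left out. The genome holds near-copies of SDHA, and reads that fit them cannot be assigned with certainty.

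Both assembly factors of complex II had higher means in the STIL-knockdown libraries, opposite to the subunits. SDHAF2, which attaches the flavin to SDHA, had 4.50, 4.62 and 4.44 in control and 4.79, 4.77 and 4.79 in STIL-knockdown libraries (log2 fold change 0.26, SE 0.06, limma adjusted p = 0.0027), a call that was lost in 5 of the 6 fits with 1 library left out. SDHAF1, which helps to fit the clusters into SDHB, had 3.65, 3.55 and 3.64 against 3.99, 3.85 and 3.77, with the same log2 fold change of 0.26, and did not pass (limma adjusted p = 0.019).

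Complex III, which passes electrons from ubiquinol to cytochrome c, had 5 lower (55.6%) and no higher genes of 9. Of all genes whose mean log2 CPM reached 3, 32.8% were lower and 32.4% higher. UQCRC1, a core protein, had 7.91, 7.80 and 7.84 in control and 7.43, 7.56 and 7.45 in STIL-knockdown libraries, with 77.4% left (log2 fold change -0.37, SE 0.04, limma adjusted p = 4.7e-06). UQCRQ and UQCR10, small subunits, each fell by 0.36, and UQCRH, the hinge protein between cytochromes, by 0.35. With 1 library left out, the call was lost in 4 of 6 fits for UQCRQ, 5 for UQCR10 and 1 for UQCRH. UQCRC2, the other core protein, fell by 0.13. UQCRFS1, the Rieske iron-sulphur protein, ranged from 6.97 to 7.03 in control and from 6.99 to 7.06 in STIL-knockdown libraries, and its values overlapped between the groups (log2 fold change 0.01, limma adjusted p = 0.75). UQCR11 (-0.10) and UQCRB (-0.01) did not pass either. UQCRHL, a near-copy of UQCRH, was at or near the floor, from -3.05 to -1.49, and its reads cannot be told apart from those of UQCRH with certainty.

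Complex IV, cytochrome c oxidase, had 11 lower (45.8%) and 3 higher (12.5%) genes of 24. Of all genes whose mean log2 CPM reached 3, 32.8% were lower and 32.4% higher. Of the 11 subunits of complex IV, counted without alternative isoforms, 8 (72.7%) were lower and none higher. COX7A2L and NDUFA4L2, which were counted as isoforms, were higher. NDUFA4 had a log2 CPM of 6.87, 6.84 and 6.84 in control and 5.72, 5.87 and 5.80 in STIL-knockdown libraries. Each STIL-knockdown library was lower by about 1 log2 unit, and 48.1% was left (log2 fold change -1.06, SE 0.04, limma adjusted p = 2.7e-10). COX7B had 6.16, 6.09 and 6.13 against 5.33, 5.22 and 5.15 (log2 fold change -0.89, SE 0.05, limma adjusted p = 5.7e-09). COX6B1, a subunit on the side of the intermembrane space, had 6.90, 6.76 and 6.85 against 5.94, 5.92 and 5.97, and 53.9% was left (log2 fold change -0.89, SE 0.04, limma adjusted p = 8.6e-10). COX7A2 (-0.47), COX8A (-0.41), COX7C (-0.23), COX4I1 (-0.18) and COX6A1 (-0.14) also passed. COX4I1 and COX6A1 did not pass with a replicate block (adjusted p = 0.011 and 0.015 in limma), and in 6 and 5 of the 6 fits with 1 library left out. COX5A (-0.07), COX5B (-0.13) and COX6C (-0.14) did not pass.

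**Figure D3:**
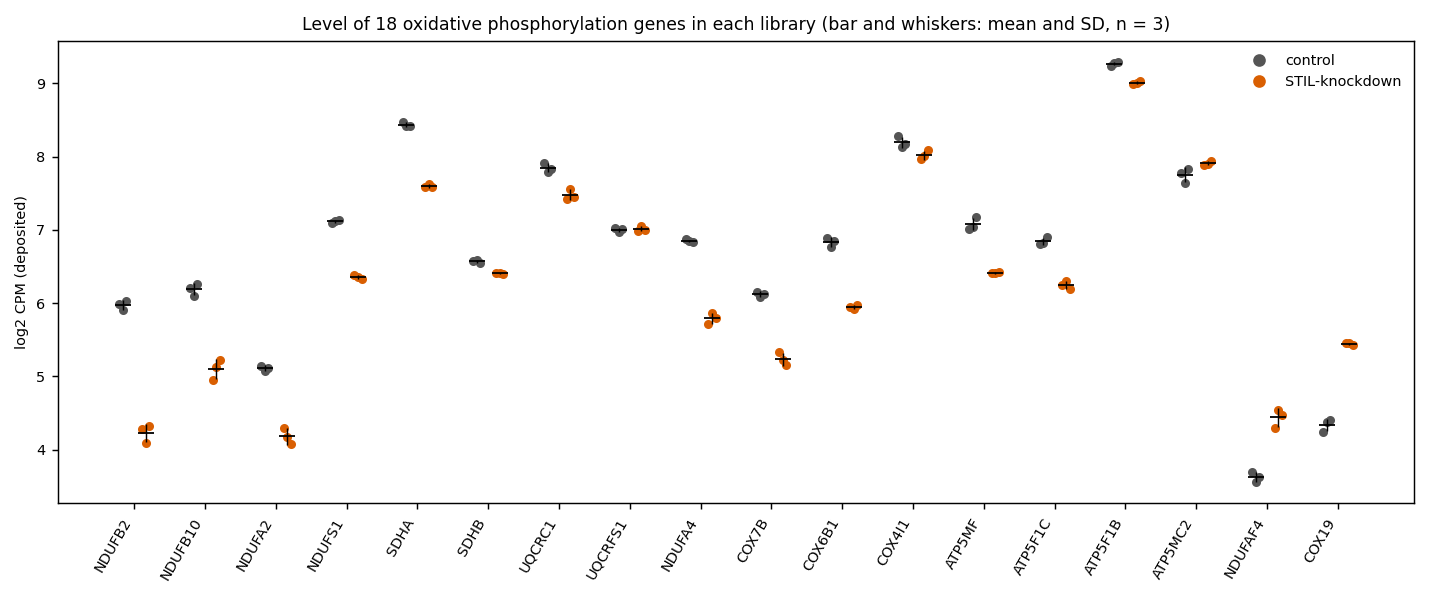
Deposited log2 CPM (y axis) of 18 oxidative phosphorylation genes in the control (grey) and STIL-knockdown (orange) libraries, with the mean and SD (n = 3). NDUFB2 shows the widest gap (5.97 against 4.23 in the mean), UQCRFS1 overlaps, and ATP5MC2, NDUFAF4 and COX19 are higher in the STIL-knockdown libraries.

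COX19, an assembly factor of complex IV that takes part in copper delivery, had the largest rise among oxidative phosphorylation genes whose mean log2 CPM reached 3. Its log2 CPM was 4.24, 4.37 and 4.40 in control and 5.45, 5.45 and 5.43 in STIL-knockdown libraries. The STIL-knockdown libraries were close to each other and each about 1 log2 unit above control (log2 fold change 1.11, SE 0.06, limma adjusted p = 2.6e-09), at 215% of the control level. None of the other 8 assembly factors of complex IV passed as higher. Of the 9 together, 3 (33.3%) were lower, beside 32.8% of all genes whose mean log2 CPM reached 3. COX11, which also serves copper insertion, fell by 0.40, COX16 by 0.43 and COX20 by 0.28, and COX17 (-0.21), COX14 (-0.27), COX18 (-0.10), COX15 (-0.01) and COX10 (0.07) did not pass.

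Some subunits of complex IV have alternative isoforms. COX4I2 was at the floor of -3.05 in 4 libraries and reached -2.48 in the other 2, and COX6B2 ranged from -2.48 to -1.05. Neither passed. NDUFA4L2, a paralog of NDUFA4 known to be induced in hypoxia, had -0.10, -0.71 and -0.68 in control and 0.81, 1.15 and 0.56 in STIL-knockdown libraries, a log2 fold change of 1.34 (SE 0.25, limma adjusted p = 0.00041). Its values did not overlap, but they rest on few reads, and the call was lost when any 1 of 5 of the 6 libraries was left out. COX7A2L, a relative of COX7A2 that takes part in joining complexes III and IV, rose by 0.39 (SE 0.04, limma adjusted p = 1.2e-06), from 6.15, 6.14 and 6.21 to 6.54, 6.53 and 6.61. As COX7A2 fell, COX7A2L made up 39.5%, 39.1% and 37.9% of the summed CPM of both genes in control and 52.8%, 53.4% and 54.6% in STIL-knockdown libraries. These shares count reads and are not divided by transcript length.

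Complex V, the ATP synthase, had 14 lower (73.7%) and 1 higher (5.26%) gene of 19. The shares of all genes whose mean log2 CPM reached 3 were 32.8% and 32.4%. Complex V also had the lowest median log2 fold change of the 5 complexes, -0.37. All 5 genes of the F1 head, where ATP is made, were lower. ATP5F1C, the central shaft, had 6.81, 6.82 and 6.90 in control and 6.25, 6.30 and 6.20 in STIL-knockdown libraries, so that 66.2% was left (log2 fold change -0.60, SE 0.04, limma adjusted p = 3.3e-08). ATP5F1D, which lies at the foot of the shaft, had 7.16, 7.02 and 7.07 against 6.52, 6.45 and 6.54 (log2 fold change -0.58, SE 0.04, limma adjusted p = 6.1e-08). The alpha and beta subunits ATP5F1A and ATP5F1B, which form the catalytic ring, fell by 0.42 and 0.26, and ATP5F1E by 0.28. ATP5F1B had 9.24, 9.28 and 9.29 in control and 8.99, 9.01 and 9.03 in STIL-knockdown libraries.

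Of the 10 genes of the stalk and membrane part, 6 (60%) were lower, beside 32.8% of all genes whose mean log2 CPM reached 3. ATP5MF, a small membrane subunit, had 7.02, 7.04 and 7.17 in control and 6.41, 6.41 and 6.42 in STIL-knockdown libraries, with 63.0% left (log2 fold change -0.67, SE 0.04, limma adjusted p = 1.6e-08). The stalk genes ATP5PB (-0.51), ATP5PD (-0.47), ATP5PF (-0.31) and ATP5PO (-0.23) and the membrane subunit ATP5ME (-0.46) also fell. ATP5MJ (-0.08), ATP5MK (-0.06) and ATP5MG (0.00) did not pass. ATP5MF-PTCD1, a readthrough gene that overlaps ATP5MF, was at the floor in 5 libraries and at 0.38 in STIL-knockdown replicate 2. ATP5IF1, the inhibitor that keeps the enzyme from running backwards, fell by 0.43 (SE 0.06, limma adjusted p = 2.4e-05).

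The c ring of complex V is encoded by 3 genes whose mature proteins are identical, and these did not move together. ATP5MC3 had 7.06, 6.92 and 7.04 in control and 6.35, 6.48 and 6.47 in STIL-knockdown libraries (log2 fold change -0.57, SE 0.05, limma adjusted p = 2.2e-07). ATP5MC1 had 5.67, 5.61 and 5.81 against 5.32, 5.35 and 5.32 (log2 fold change -0.37, SE 0.05, limma adjusted p = 4.7e-05), a call that was lost in 2 of the 6 fits with 1 library left out. ATP5MC2 had 7.78, 7.64 and 7.84 against 7.89, 7.90 and 7.95 (log2 fold change 0.16, SE 0.05, limma adjusted p = 0.0075). The first 2 fell and ATP5MC2 was slightly higher, a call that was lost when any 1 of the 6 libraries was left out. ATP5MC2 made up 54.4%, 54.0% and 54.9% of the summed CPM of the 3 genes in control and 66.1%, 64.8% and 65.7% in STIL-knockdown libraries. The share of ATP5MC3 went from 33.0%, 32.8% and 31.6% to 22.7%, 24.2% and 23.7%. Their summed CPM overlapped between the groups, at 369 to 417 in control and 358 to 375 in STIL-knockdown libraries.

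**Figure D4:**
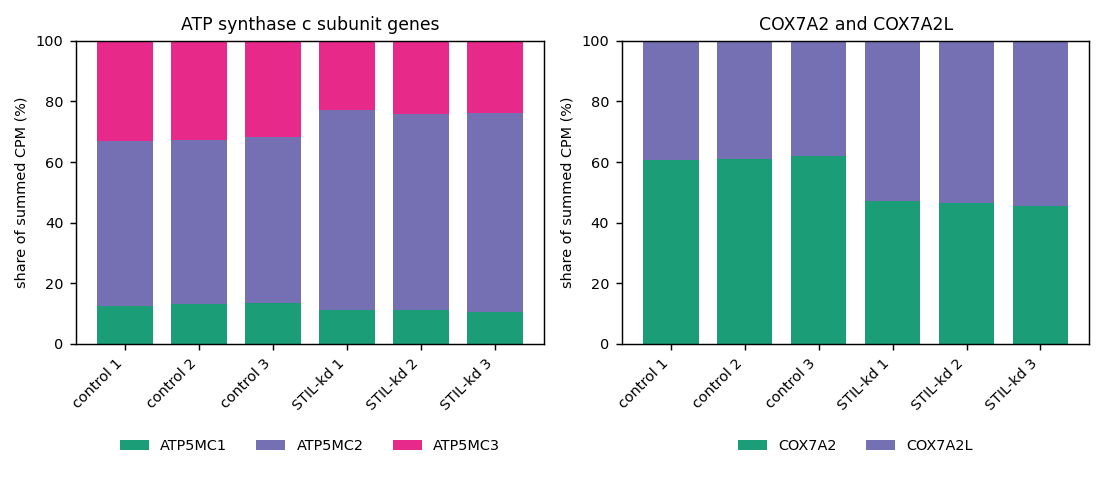
Share of the summed CPM (y axis, %) of the 3 c subunit genes of ATP synthase (left) and of COX7A2 and COX7A2L (right) in each library, as stacked bars that add up to 100%. The mean share of ATP5MC2 was 54.4% in control and 65.5% in STIL-knockdown libraries, and that of COX7A2L 38.8% and 53.6%.

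Transcript length moved with the fold changes, and oxidative phosphorylation transcripts are short. Their median length was 1018 nt, against 3163 nt for the 9943 genes whose mean log2 CPM reached 3, while the median GC content was 48.3% in both. The 9929 of those genes with an annotated length were split by it into 5 classes of like size. In the shortest class, which held 67 of the 98 oxidative phosphorylation genes at that level, the median log2 fold change of all genes was -0.10, with 39.9% lower and 21.4% higher. In the longest class the median was 0.11. After each library was corrected for GC content and length, 51 of the 104 genes were lower, against 24.3% of all genes, and 16 were higher, against 26.6%. These shares of all genes were not limited to genes whose mean log2 CPM reached 3, so the comparison is again affected by level. The median log2 fold change of the 104 genes became -0.13, beside 0.03 over all genes and 0.01 over those at that level.

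By complex, the correction left 19 lower and 9 higher genes of 46 in complex I, 4 and 2 of 6 in complex II, 5 and 1 of 9 in complex III, 9 and 3 of 24 in complex IV, and 14 and 1 of 19 in complex V. Over genes of any level, it left 24.3% lower and 26.6% higher. Among the 104, those no longer lower were NDUFA11, NDUFAF8, NDUFB7, NDUFC1, NDUFV1, COX4I1 and COX6A1, and those that became higher were NDUFA7, NDUFAB1, NDUFB9, NDUFS7, NDUFS8, SDHAF1 and UQCR11. The corrected log2 fold change was -1.54 for NDUFB2, -1.08 for NDUFA4, -0.77 for SDHA and 1.13 for COX19, each in the same direction as before, while that of ATP5MC2 went from 0.16 to 0.33. Some falls shrank and others grew. ATP5F1D went from -0.58 to -0.30, COX8A from -0.41 to -0.18, UQCRQ from -0.36 to -0.15 and ATP5MC1 from -0.37 to -0.19, each still past the threshold. In the other direction, SDHC went from -0.22 to -0.39, NDUFA9 from -0.13 to -0.25 and NDUFS1 from -0.76 to -0.92. Of the 58 lower genes, 13 kept at most 0.5 of their log2 fold change, and 3 of these, COX6A1, NDUFA11 and NDUFB7, turned to a positive value. What part transcript length had in the differences was not tested.

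**Figure D5:**
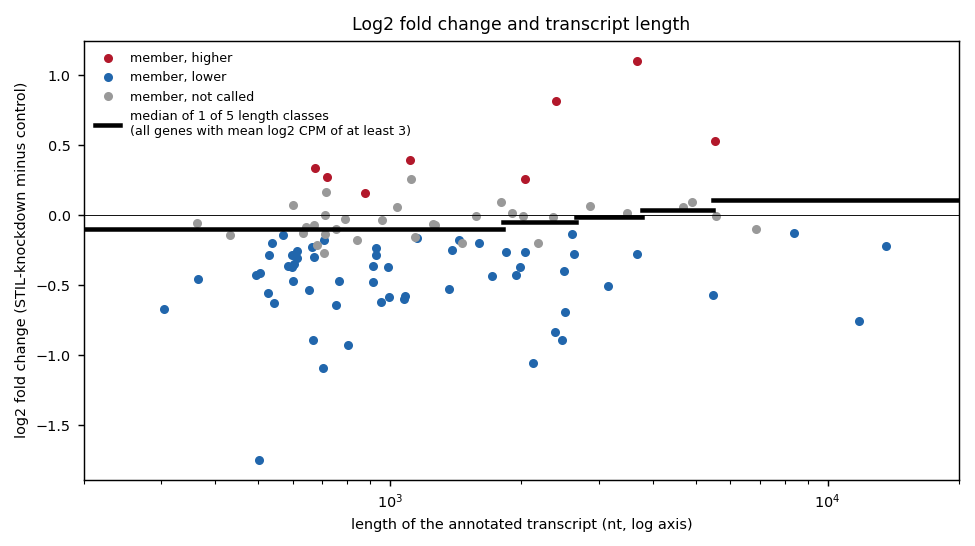
Log2 fold change (y axis, STIL-knockdown minus control) against the length of the annotated transcript (x axis, nt, log scale) for the 99 oxidative phosphorylation genes whose mean log2 CPM reached 1, blue where lower, red where higher and grey where not called. Black lines give the median of the 9929 genes with an annotated length in each of 5 length classes, from -0.10 in the shortest to 0.11 in the longest, and most of the genes lie in the shortest class.

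Other genes of the pathway were read beside these. None of the 13 subunits encoded by mitochondrial DNA was among the genes used here, so they were not analysed. Of 37 other respiratory chain genes, 34 of which reached a mean log2 CPM of 3, 12 (32.4%) were lower and 7 (18.9%) higher. Of all genes at that level, 32.8% were lower, a share close to theirs, and 32.4% higher, a larger share than theirs. PET100, an assembly factor of complex IV, fell by 0.93 and CYCS, cytochrome c, by 0.71, while COA6, a copper factor, rose by 0.55 and ECSIT, an assembly factor of complex I, by 0.44. Of 17 citric acid cycle genes, all at that level, 9 (52.9%) were lower and 1 (5.88%) higher, beside 32.8% and 32.4% of all genes there. FH, the fumarase, stood at -0.55, CS, the citrate synthase, at -0.49 and DLD, a dehydrogenase subunit shared by several complexes, at 0.17. Genes of mitochondrial biogenesis and mass were divided, with 9 lower and 10 higher of 26 (34.6% and 38.5%), near the shares of all genes at that level (32.8% and 32.4%). PHB, a prohibitin of the inner membrane, fell by 1.15 and TIMM23, an import channel, by 0.62. GABPB1, the partner of GABPA, rose by 0.68 and PPRC1, a coactivator of the PGC family, by 0.55. Of 78 mitochondrial ribosomal protein genes, a list added after the values were seen, 29 (37.2%) were lower and 11 (14.1%) higher, with a median log2 fold change of -0.08. All 78 reached a mean log2 CPM of 3, where 32.8% of all genes were lower and 32.4% higher.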

How the data were processed

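RNA was sequenced from 3 control (shNC) and 3 STIL-knockdown (shSTIL) samples of EJ cells. Before deposit, the authors cleaned the BGISEQ-500 reads (SOAPnuke), aligned them to transcript sequences (Bowtie2) and ran RSEM for gene-level estimates, and the submitters' notes name hg38. The deposited estimated counts, without normalization, were available here for 4 libraries and served to check the depth. The deposited log2 CPM of all 6 libraries, which the authors computed with edgeR, was the unit analysed. RSEM divides reads among similar transcripts, so close paralogs are uncertain.

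From these, limma 3.58.1 (R 4.3.3, mean-variance trend, no replicate block) was fitted to all 15953 genes with Benjamini-Hochberg adjustment and a threshold of 0.01. The design had assumed whole counts, but the tables hold estimated counts, which were not available here for every library. Reads of every library were therefore recovered from the log2 CPM. They too are estimated counts (87.5% to 87.9% whole within 0.01) and were rounded for edgeR 4.0.16 and DESeq2 1.42.0. Members had 159 to 10146 reads per library where the mean log2 CPM was at least 3, and the floor of -3.05 is 0 reads. The code of the fits was run on simulated data in which far fewer genes changed than here, so that run does not measure errors in these data. Named genes were the 3 largest rises and falls of each complex, complex II, core subunits of complex I, the isoform families and members with a mean log2 CPM under 1, and further members are named as lists with their values. A gene that the rule names is not reported here. The members and lists were chosen with earlier results of these data known. Alternatives covered the trend, normalization, filter, test, threshold, replicate block, each library left out, GC content and length, and the pseudocount. Positions and lengths come from GENCODE 29 (GRCh38), with the lowest-numbered principal transcript per gene. The longest had been used at first and was replaced after its values were seen, so both are given. Some annotated transcripts, such as that of SDHC, may be longer than the form expressed.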

Additional observations from a re-analysis of the deposited data

How the results depend on the processing

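The count of lower genes and the median log2 fold change kept their direction in every alternative run. The counts were 44 lower and 6 higher in limma without the trend, 56 and 11 after quantile normalization, 59 and 9 after median centring, 59 and 9 when genes under a mean log2 CPM of 1 were left out, 59 and 11 in edgeR, 57 and 9 in DESeq2, 58 and 8 with log2 of CPM plus 0.5, and 63 and 13 at an adjusted p under 0.05. Over all 15953 genes, limma without the trend called 2976 lower and 2879 higher, and quantile normalization 3493 and 3844. Median centring gave 3864 and 3685, and edgeR 3943 and 3888. Of 11319 genes at a mean log2 CPM of 1, 3768 were lower and 3680 higher. DESeq2 called 3418 and 3363 of 15938. Log2 of CPM plus 0.5 gave 3732 and 3698, and an adjusted p under 0.05 gave 4470 and 4518. A test against a change of 1.2-fold (limma treat) kept 23 lower and 4 higher of the 104, and 1759 and 1558 of all genes. With 1 library left out, 38 to 49 of the 104 were lower and 5 to 6 higher, lowest without STIL-knockdown replicate 3 and, for the higher genes, also without STIL-knockdown replicate 1. Over all genes these fits called 2500 to 2837 lower and 2400 to 2801 higher. The GC content and length correction gave 16 higher genes and a median of -0.13. With the longest transcript of each gene, an alternative added after the data were seen, it gave 50 lower and 15 higher genes and a median of -0.14. Of 15869 genes with an annotated length, the correction called 3855 lower and 4216 higher, and with the longest transcript 3854 and 4193.

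Among the genes named by the rule, the sign changed for COX6B2 (0.14) and NDUFS8 (0.027) without control replicate 1, and with 1 library left out they ranged from -0.57 to 0.14 and from -0.072 to 0.027. It changed for COX6A1 (0.035) and NDUFS8 (0.21) under the GC content and length correction, and for COX4I1 (0.00090), COX6A1 (0.046) and NDUFS8 (0.22) under that with the longest transcript. Over all 104 genes the correction turned the sign of 13, among them UQCR11, which became 0.15. The cause was not tested. STIL kept its direction and call in each alternative. Libraries with the same replicate number did not deviate together (correlations -0.12, -0.06 and -0.11), so the numbers were not used to pair them. A replicate block gave 54 lower and 9 higher genes of the 104, beside 3468 and 3430 of all genes, with STIL at -1.99. Depth limits COX4I2, COX6B2, UQCRHL and ATP5MF-PTCD1, which lie at or near the floor, and NDUFA4L2, which had 8 to 36 reads per library.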

Other observations

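The 3′ UTRs of the 104 genes were searched for the 8-base words that pair with the first 8 bases of the antisense strand of the study's 3 STIL siRNAs, a search added after the values were seen. The word of siSTIL#1 was in 1 of the 104 (COX18) and in 5.84% of all genes with an annotated 3′ UTR, that of siSTIL#2 in 1 (SDHC) and in 3.25%, and that of siSTIL#3 in 2 (COX10 and UQCRFS1) and in 3.56%. Transcripts of the 104 genes are short, with a median of 1018 nt against 3163 nt for all genes whose mean log2 CPM reached 3. The shares were not matched for length, so they cannot be compared directly. The headings of the tables name siRNAs and the labels hairpins, and the sources used here do not say whether the reagent of these samples shares a sequence with any of them.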
